A study of Homo sapiens with 6 samples.

Results

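The classical cadherins and their catenins were followed as a set of 8 genes, chosen by symbol from the 20802 genes measured. No measured value entered the rule, but earlier results of these data were known when the set was chosen. The set held 4 classical cadherins (CDH1, CDH2, CDH3 and CDH4), the atypical cadherin CDH13, and 3 catenins (CTNNA1, CTNNB1 and CTNND1). Transcripts of MCF10A, a cell line from human breast epithelium that does not form tumours, were measured by amplicon sequencing, which copies 1 short stretch of each gene's cDNA and counts the reads. There were 6 libraries, labelled as 2 replicates each of the unmodified line (WT), of cells stably overexpressing eGFP as the control (eGFP) and of cells stably overexpressing the KCNJ3 gene product GIRK1, a potassium channel subunit (GIRK1). Per the methods, GIRK1 was cloned into a plasmid that also carries eGFP, and the transfected cells were selected with G418 and sorted by eGFP fluorescence, so the eGFP and GIRK1 groups shared plasmid, selection and sorting and WT had none of them. Whether each transfected line is 1 clone or a mixed population, and whether the replicates were separate cultures, is not given in the sources used here, so p-values measure only the spread between these libraries. All cells were taken before full confluence and detached with trypsin before the RNA was isolated.

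Cadherins are calcium-dependent adhesion molecules that join neighbouring cells by binding the same cadherin on the next cell. Inside the cell the tail of a classical cadherin holds p120-catenin (CTNND1) near the membrane and β-catenin (CTNNB1) further along, and β-catenin holds α-catenin (CTNNA1), which links the complex to actin. In the mammary gland E-cadherin is found in both epithelial layers and P-cadherin mainly in the basal layer, and β-catenin that is not held at the membrane also acts as a co-activator of transcription in the Wnt pathway.

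The libraries held between 2506120 and 16040556 reads, and the smallest level that 3 reads can show ran from 0.187 to 1.20 RPM (reads of the gene scaled to a library total of 1000000 reads). KCNJ3 had 2408 and 3677 reads in the GIRK1 libraries and 0 reads in both eGFP libraries and in WT replicate 2, and 48 reads in the library labelled WT replicate 1. That library stood apart from the other 5. Of 6 basal epithelial markers it had 10 or more reads for 1, with KRT14, KRT17, TP63 and KRT6A at 0, and all 9 luminal markers had at least 10 reads in it, whereas in the other 5 libraries ESR1, KRT19, TFF1 and PGR were at 0 and every basal marker but TP63 was present. TP63 was at 0 in all 6 libraries. The comparisons therefore used the other 5 libraries, and WT replicate 1 is described apart. Among those 5, eGFP replicate 1 was the least like the rest, with 886 of 9212 well-covered genes at least 2-fold from eGFP replicate 2, against 119 between the GIRK1 replicates and 89 between eGFP replicate 2 and WT replicate 2. The names of the deposited data give the GIRK1 libraries a tag that the other libraries do not carry, so if it stands for a sequencing run, the effect of that run and of GIRK1 cannot be told apart.

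For E-cadherin and P-cadherin the mean levels of GIRK1 and eGFP cells differed by less than the error of the fit. CDH1, which encodes E-cadherin, is a plus-strand gene of chromosome 16 (68737225 to 68835548, GRCh38, as are the positions of the other genes), and its amplicon covers positions 1612 to 1714 of transcript NM_004360. CDH1 was measured at 103 and 110 RPM in the eGFP libraries, 96.3 RPM in WT replicate 2, and 116 and 111 RPM in the GIRK1 libraries, from 527 to 1544 reads. Both GIRK1 values lay above all 3 controls, by a margin of less than 1 RPM over the highest of them. The group means were 106 ± 5.05 RPM for eGFP and 113 ± 4.0 RPM for GIRK1 (SD, n = 2 each). The log2 fold change of GIRK1 against eGFP was 0.05, with a 95% interval from -0.41 to 0.52 (adjusted p = 0.902, edgeR's quasi-likelihood test). Against WT replicate 2 it was 0.26, with an interval from -0.32 to 0.83 (adjusted p = 0.882). In this bulk measurement fewer cells expressing a gene and less RNA per cell cannot be told apart.

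CDH3, which encodes P-cadherin, ends 14608 bases before CDH1 on the same strand of chromosome 16 (68636189 to 68722616). It had 207 and 289 RPM in the eGFP libraries, 261 RPM in WT replicate 2, and 270 and 273 RPM in the GIRK1 libraries. The GIRK1 values fell inside the range of the controls and lay closer to each other than the eGFP replicates, which differed 1.40-fold. The log2 fold change was 0.10 against eGFP (95% interval -0.43 to 0.63, adjusted p = 0.833, edgeR) and 0.08 against WT replicate 2 (-0.57 to 0.73, adjusted p = 0.977). Against eGFP the upper bounds of these intervals were 1.43-fold for CDH1 and 1.55-fold for CDH3.

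**Figure D1:**
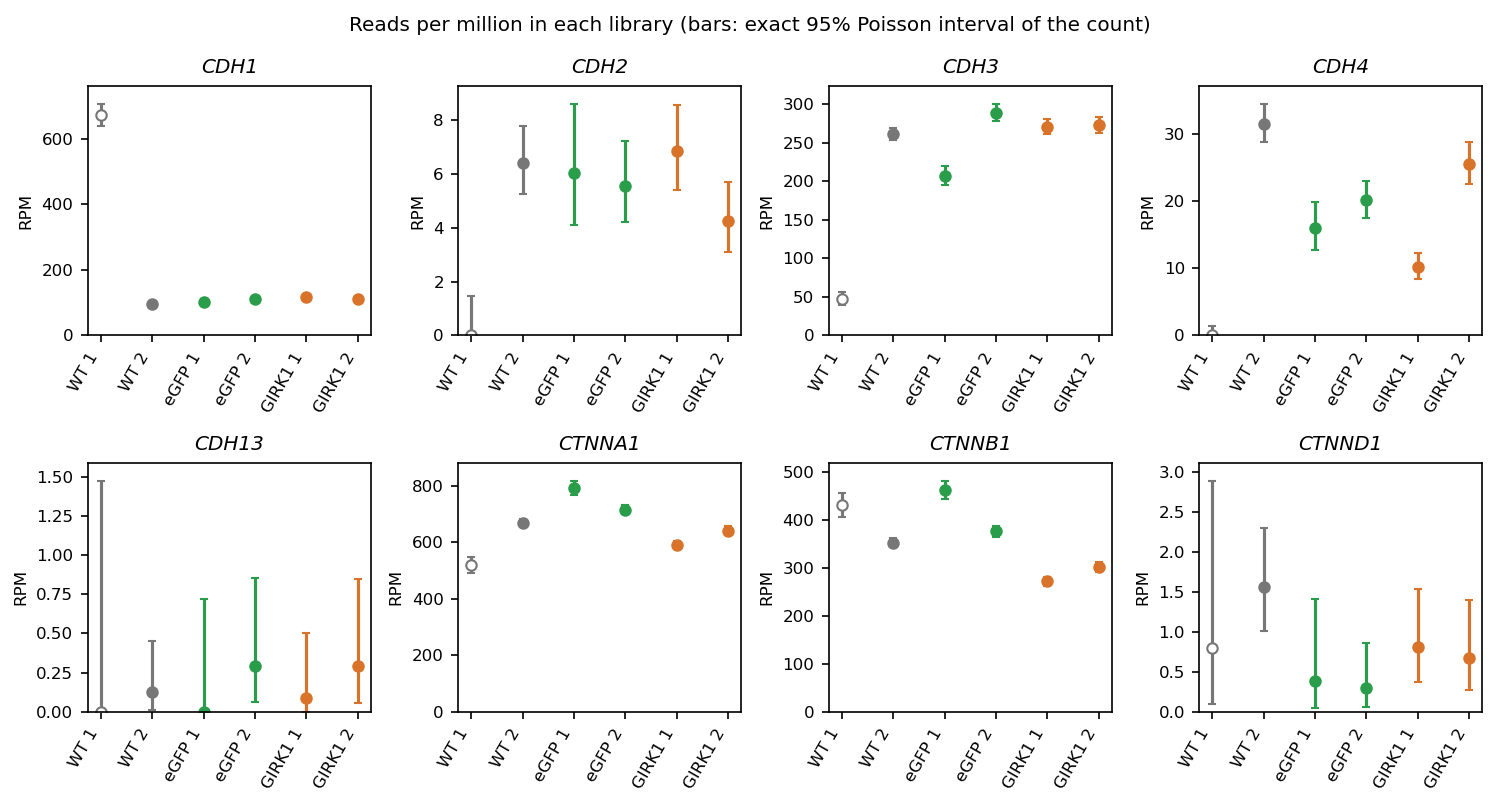
Level of each of the 8 genes (y axis, RPM, linear from 0, a separate scale for each gene) in each of the 6 libraries (x axis), with WT in grey, eGFP in green, GIRK1 in orange and an open symbol for WT replicate 1. Bars are the exact 95% Poisson interval of the count, which covers counting error only. CDH1 runs from 96.3 to 116 RPM and CDH3 from 207 to 289 RPM over the 5 filled symbols, CTNNB1 and CTNNA1 sit lower in both GIRK1 libraries than in the other filled symbols, and WT replicate 1 is at 672 RPM for CDH1 and at 0 for CDH2, CDH4 and CDH13.

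N-cadherin, which mesenchymal and neural cells use and which many carcinoma cells gain, was low and did not separate the groups. CDH2 (chromosome 18, 27950966 to 28177446, minus strand) had 31 and 57 reads in the eGFP libraries (6.05 and 5.57 RPM), 103 reads in WT replicate 2 (6.42 RPM), and 76 and 44 reads in the GIRK1 libraries (6.84 and 4.25 RPM). The highest and the lowest of these 5 values were both from GIRK1. The log2 fold change was -0.10 against eGFP (95% interval -1.02 to 0.82, adjusted p = 0.907, edgeR), and 2-fold is at the edge of what that interval covers.

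CDH4, which encodes R-cadherin, first described in retina, varied more between replicates than between groups. This gene on chromosome 20 (61252426 to 61940617, plus strand) gave 16.0 and 20.1 RPM in the eGFP libraries, 31.5 RPM in WT replicate 2, and 10.2 and 25.6 RPM in the GIRK1 libraries. The GIRK1 replicates were 2.52-fold apart, a gap far outside their counting intervals (8.38 to 12.2 RPM and 22.6 to 28.9 RPM, exact Poisson), and 1 lay below and the other above both eGFP libraries. The log2 fold change was -0.05 against eGFP (95% interval -1.07 to 0.97, adjusted p = 0.958, edgeR) and -0.79 against WT replicate 2 (-1.98 to 0.40, adjusted p = 0.811). Without GIRK1 replicate 1 these values were 0.48 and -0.26, and without GIRK1 replicate 2 they were -0.88 and -1.63.

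CDH13 encodes T-cadherin, which is anchored in the membrane by a lipid and has no tail that binds catenins. It lies on chromosome 16 from 82626803 to 83800640 and had 0 and 3 reads in eGFP, 2 reads in WT replicate 2, and 1 and 3 reads in GIRK1. All 6 libraries were at or under 3 reads, so a difference in CDH13 was not detectable at this depth, and it was the 1 gene of the 8 that did not pass the filter on low counts.

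β-Catenin transcripts were lower in both GIRK1 libraries than in the controls, by a difference that did not pass the adjusted threshold. CTNNB1 (chromosome 3, 41194741 to 41260096, plus strand) gave 462 and 376 RPM in the eGFP libraries, 353 RPM in WT replicate 2, and 272 and 302 RPM in the GIRK1 libraries. Both GIRK1 libraries lay below all 3 controls, and the nearest control was WT replicate 2. The means were 419 ± 60.9 RPM in eGFP and 287 ± 21.3 RPM in GIRK1 (SD, n = 2 each), a log2 fold change of -0.59 (95% interval -1.15 to -0.04). By edgeR's quasi-likelihood test its unadjusted p was 0.0401, and after adjustment over the 11779 genes tested it was 0.242, so the difference did not pass. Against WT replicate 2 the log2 fold change was -0.27 (95% interval -0.95 to 0.40, adjusted p = 0.901). With eGFP replicate 2 left out it was -0.79 against eGFP, and with eGFP replicate 1 left out it was -0.37. Each of these fits left 1 library in the eGFP group, and whether CTNNB1 passed depended on which was kept. It passed only in the fit that kept eGFP replicate 1, where many more of all genes passed than with both eGFP libraries.

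Forward and reverse reads of the CTNNB1 amplicon gave different sizes. In eGFP replicate 1, 59.8% of the CTNNB1 reads were forward reads, against 48.0% to 52.7% in the other 4 libraries compared, while over all genes each library had between 49.3% and 50.5% forward reads. Counted from forward reads alone the log2 fold change against eGFP was -0.79, and from reverse reads alone it was -0.37, with adjusted p = 0.225 and 0.446 (edgeR). The part of this imbalance in the difference was not tested.

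CTNNA1, the α-catenin that links the complex to actin, was on the same side with a smaller difference. This gene on chromosome 5 (138610967 to 138935034, plus strand) gave 791 and 714 RPM in eGFP, 668 RPM in WT replicate 2, and 589 and 641 RPM in GIRK1. Both GIRK1 libraries were again below the 3 controls, and the difference was within its error, with a log2 fold change of -0.33 against eGFP (95% interval -0.85 to 0.18, adjusted p = 0.429, edgeR) and -0.10 against WT replicate 2 (-0.72 to 0.52, adjusted p = 0.969). CTNNA1 also had an uneven share of forward reads in eGFP replicate 1, 31.8% against 43.4% to 45.4% in the other 4 libraries. Forward reads alone gave -0.07 and reverse reads alone gave -0.51.

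CTNND1, which encodes p120-catenin, a stabiliser of cadherins at the membrane, was read by its amplicon at positions 476 to 580 of NM_001085458 (gene on chromosome 11, 57753243 to 57819546) with very few reads. It had 2 and 3 reads in eGFP, 9 and 7 reads in GIRK1 and 25 reads in WT replicate 2 (1.56 RPM, the highest of the 5). Both eGFP libraries were at or under 3 reads. The gene passed the filter on low counts through the single WT library, where it was highest. Its log2 fold change was 1.12 against eGFP with a 95% interval from -0.85 to 3.08 (adjusted p = 0.492, edgeR), an interval too wide to tell a rise from a fall.

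Over the whole set, 7 of 8 genes passed the filter and 0 had an adjusted p below 0.05 against eGFP, where 1.6% of all genes tested passed (edgeR's quasi-likelihood test, 188 of 11779, with 0.756% higher and 0.84% lower). Against WT replicate 2 the shares of genes that passed were 0.195% higher and 0.034% lower. At an unadjusted p below 0.05 there was 1 of 7, CTNNB1, against a background of 18.8%. DESeq2 gave the same counts of 0 and 1, against 5.86% and 15.8% of all genes. The unadjusted count was 0 in 7 of the 15 alternatives, the replicate block among them (CTNNB1 unadjusted p = 0.0594, edgeR). Against WT replicate 2, both tools gave 0 of 7 at either threshold (DESeq2 gave CTNND1 no adjusted p), where the background by edgeR was 0.229% adjusted and 7.38% unadjusted (3.62% lower), and by DESeq2 1.15% and 5.28%. CDH4 alone was below an unadjusted 0.05 there, in 2 of 13 alternatives, without eGFP replicate 1 and without GIRK1 replicate 2. The median log2 fold change of the 7 was -0.05 against eGFP and -0.19 against WT replicate 2, and that of all genes tested was 0.02 and 0.01. Both GIRK1 libraries lay above both eGFP libraries for CDH1 and CTNND1 and below both for CTNNA1 and CTNNB1, which was so of 29.2% and 24.8% of all genes tested. They lay above all 3 controls for CDH1 and below all 3 for CTNNA1 and CTNNB1, with no overlap. Of all genes tested 21.6% lay above in this way and 19.3% below, so these counts are near the background. By the rule of the methods, at least 2-fold between mean RPM values and a coefficient of variation under 0.7 in each group, CTNND1 was higher (2.18-fold, from counts of 2 to 9 reads) and the other 7 genes were not called, where 6.29% of all genes were. The 2 comparisons share the GIRK1 libraries.

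**Figure D2:**
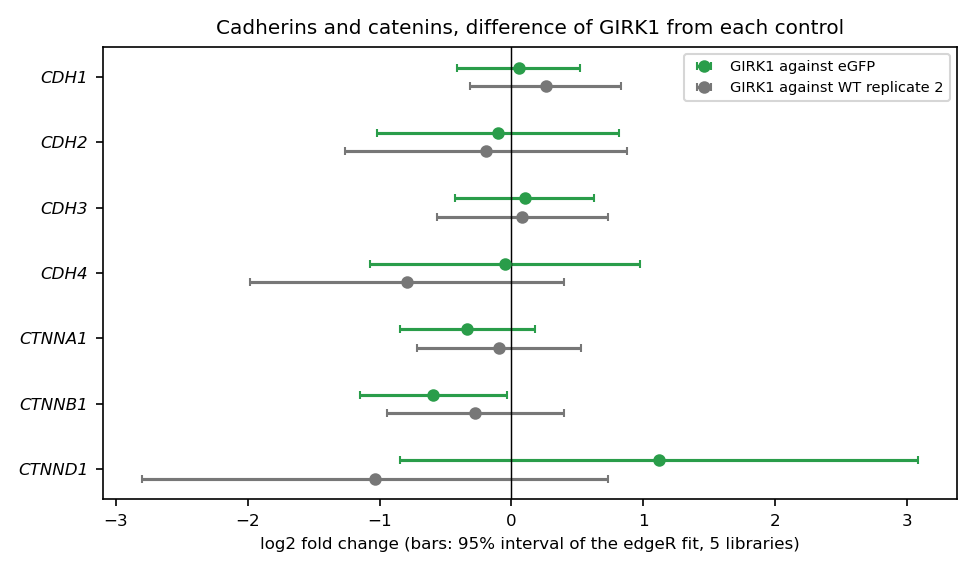
Difference of GIRK1 from eGFP (green) and from WT replicate 2 (grey) for the 7 genes that passed the filter on low counts (y axis), as log2 fold change (x axis). Points are the fitted values and bars the 95% interval of the edgeR fit over 5 libraries. All intervals cross 0 except that of CTNNB1 against eGFP, which ends at -0.04, and the interval is widest for CTNND1.

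The balance between genes within a library does not depend on how libraries are scaled. Amplicons differ in how well they amplify, so such a ratio is compared only across libraries and does not compare the amount of one transcript with another. The ratio of CDH3 to CDH1 reads was 2.32 and 2.47 in GIRK1, inside the range of the controls (2.01 and 2.63 in eGFP, 2.71 in WT replicate 2). The ratio of CDH2 to CDH1 is a common readout of a switch from E- to N-cadherin. It was 0.0588 and 0.0384 in GIRK1, 0.0588 and 0.0507 in eGFP and 0.0667 in WT replicate 2. GIRK1 replicate 1 lay inside the range of the controls and GIRK1 replicate 2 below it. By contrast, β-catenin relative to E-cadherin was lower in both GIRK1 libraries. CTNNB1 to CDH1 was 2.34 and 2.73 there, 4.49 and 3.42 in eGFP and 3.66 in WT replicate 2. CTNNA1 to CDH1 was 5.07 and 5.79 in GIRK1, 7.70 and 6.49 in eGFP and 6.94 in WT replicate 2. The GIRK1 and control values of these last ratios did not overlap, which follows from CDH1 lying above all 3 controls and both catenins below them. Of all genes tested, 21.6% lay above the 3 controls in both GIRK1 libraries and 19.3% below. The share of all genes whose ratio to CDH1 separated in this way was not computed. With 2 libraries against 3 these ratios are given as a description, with no test.

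**Figure D3:**
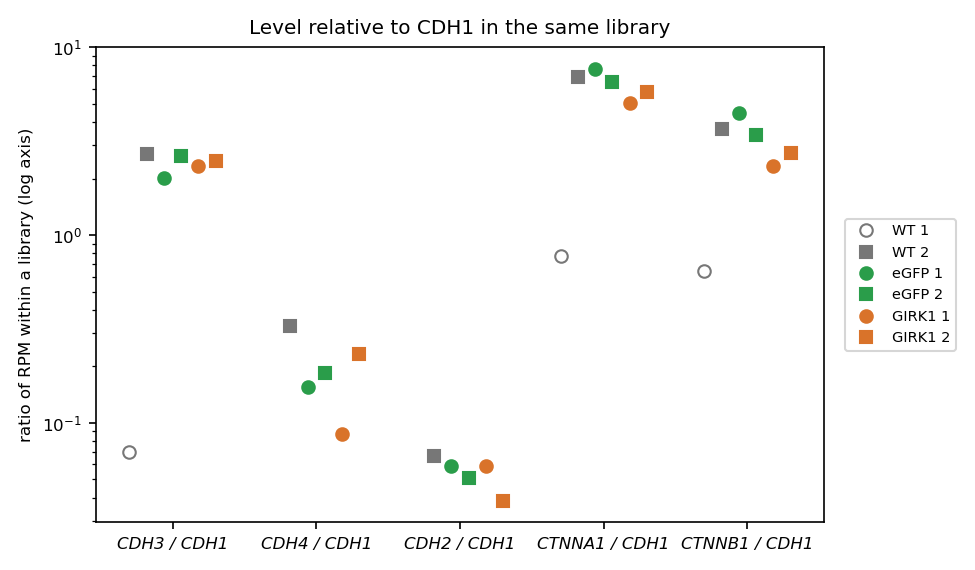
Ratio of the RPM of CDH3, CDH4, CDH2, CTNNA1 and CTNNB1 to that of CDH1 in the same library (y axis, log scale). Circles are replicate 1 and squares replicate 2, with WT in grey, eGFP in green and GIRK1 in orange. The open circle is WT replicate 1, which lies at 0.0701 for CDH3 and below 1 for both catenins and is missing where it had 0 reads. The orange symbols are the lowest filled ones for CTNNA1 and CTNNB1 and lie among the others for CDH3.

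The library labelled WT replicate 1 had another cadherin pattern. CDH1 was at 672 RPM in it (1684 reads, exact Poisson 95% interval 640 to 705 RPM), 5.78-fold above the highest of the other 5 libraries. CDH3 was at 47.1 RPM (118 reads), 4.40-fold below the lowest of them. CDH2, CDH4 and CDH13 had 0 reads, where 3 reads would have been 1.20 RPM and the exact Poisson interval reaches 1.47 RPM. Set against the level of 3 reads, CDH4 was at least 26.4-fold and CDH2 at least 5.36-fold higher in WT replicate 2. The catenins were closer to the rest, with CTNNA1 at 519 RPM, below the other 5, and CTNNB1 at 430 RPM, inside their range. These are values of 1 library, with no replicate check, and at 2506120 reads it was also the shallowest.

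Other cadherins had few or no reads. Of 18 further cadherin genes, 12 had 0 reads in all 6 libraries, among them CDH5, the endothelial cadherin, and only CDH24 had enough reads to be tested. CDH24 had 3.71 and 4.01 RPM in eGFP, 2.68 RPM in WT replicate 2 and 2.34 and 1.93 RPM in GIRK1 (log2 fold change -0.89 against eGFP, adjusted p = 0.325, edgeR). CDH11, which mesenchymal cells use, had 1 read in WT replicate 1 and 0 in the other libraries.

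The remaining catenins and relatives numbered 7, and of the 5 tested 0 passed the adjusted threshold in either comparison. Without eGFP replicate 1, JUP and CTNNAL1 passed against eGFP and CTNNAL1 against WT replicate 2. That fit left 1 library in the eGFP group, and many more of all genes passed in it. Over all settings the log2 fold change against eGFP ran from 0.08 to 0.67 for JUP and from -0.99 to -0.34 for CTNNAL1. JUP, which encodes plakoglobin (γ-catenin), the close relative of β-catenin that also serves desmosomes, had 185 and 134 RPM in eGFP, 158 RPM in WT replicate 2 and 220 and 202 RPM in GIRK1. Both GIRK1 values lay above the 3 controls, with a log2 fold change of 0.35 against eGFP (95% interval -0.25 to 0.95, adjusted p = 0.482). CTNNAL1, an α-catenin relative, had 16.8 and 28.6 RPM in eGFP, 27.0 RPM in WT replicate 2 and 14.4 and 14.1 RPM in GIRK1 (log2 fold change -0.71, adjusted p = 0.253). CTNNA3, an α-catenin known from heart muscle, had 3 and 14 reads in GIRK1 and 0 reads in the 3 controls (adjusted p = 0.236, edgeR). It passed the filter on low counts through GIRK1 replicate 2, where it was highest. PKP4, a p120 relative, had a log2 fold change of -0.30 (adjusted p = 0.569).

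Of the genes of the nectin and afadin adhesion system and the linkers to actin, 11 of the 15 tested were below 0 in GIRK1 against eGFP. Over all genes tested, 5737 of 11779 were below 0. Of the 15, 0 passed the adjusted threshold by edgeR. That count depended on the tool, the filter and the eGFP libraries. ACTN1 and PTPRF passed by DESeq2 (adjusted p = 0.00726 and 0.0407), where 5.86% of all genes did. Both also passed with no filter (adjusted p = 0.0131 and 0.0371, edgeR), where 865 of 15206 genes did. The count against eGFP also rose when an eGFP library was left out. Such a fit left 1 library in that group, and many more of all genes passed in it. LIMA1 passed against eGFP with either eGFP library left out, and against WT replicate 2 without eGFP replicate 1. The median log2 fold change was -0.42 against eGFP and -0.29 against WT replicate 2. At an unadjusted p below 0.05, 5 of 15 were lower against eGFP and 0 higher, where 10.7% of all genes were lower, and against WT replicate 2 there was 1, LIMA1. ACTN1, the actin cross-linker α-actinin 1, had 484 and 275 RPM in eGFP, 231 RPM in WT replicate 2 and 146 and 182 RPM in GIRK1 (log2 fold change -1.27, adjusted p = 0.125). LIMA1 (EPLIN), which ties α-catenin to actin bundles, had 87.4 and 90.2 RPM in eGFP, 87.6 RPM in WT replicate 2 and 41.1 and 58.1 RPM in GIRK1, so that the 3 controls were alike and both GIRK1 libraries lower (log2 fold change -0.88, adjusted p = 0.136 against eGFP, and -0.80, adjusted p = 0.591 against WT replicate 2). PTPRF, a receptor phosphatase found at cell contacts, stood at a log2 fold change of -1.02 (adjusted p = 0.150). VCL, which encodes vinculin, had 17 and 14 reads in eGFP, 14 in WT replicate 2 and 0 and 4 in GIRK1 (adjusted p = 0.171, edgeR). It passed the filter on low counts through the eGFP libraries, where its RPM was highest. SHROOM3, named to complete the count after its values were seen, had a log2 fold change of -0.66 (adjusted p = 0.171).

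The genes that degrade β-catenin or act with it in the nucleus were split, with 7 of 11 tested above 0 and 4 below against eGFP and 0 past the adjusted threshold in either comparison. LEF1, a transcription factor that binds β-catenin, had 9.56 and 10.2 RPM in eGFP, 7.79 RPM in WT replicate 2 and 23.9 and 16.8 RPM in GIRK1. Both GIRK1 libraries were above the 3 controls, with a log2 fold change of 1.01 against eGFP (adjusted p = 0.143) and 1.41 against WT replicate 2 (adjusted p = 0.376, edgeR for both). CTNNBIP1, an inhibitor that keeps β-catenin from such factors, had 78.6 and 71.9 RPM in eGFP, 52.9 RPM in WT replicate 2 and 45.6 and 53.2 RPM in GIRK1 (log2 fold change -0.65, adjusted p = 0.187 against eGFP). Its GIRK1 values lay on both sides of WT replicate 2. Both genes passed against eGFP without eGFP replicate 2, and LEF1 passed against WT replicate 2 with either eGFP library left out. Each of these fits left 1 library in the eGFP group, and many more of all genes passed in them. AXIN2, a common readout of Wnt signalling, had at most 1 read in each of the 5 libraries compared. PYGO2 and TCF7L1 had log2 fold changes of 0.43 and -0.99 against eGFP (adjusted p = 0.336 and 0.392).

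Of the 9 transcription factors that repress CDH1, or their partners, 7 were tested and 0 passed the adjusted threshold by edgeR, but SNAI2 did so against eGFP under other settings. SNAI2 (Slug) had 165 and 86.3 RPM in eGFP, 61.8 RPM in WT replicate 2 and 47.1 and 41.4 RPM in GIRK1. Both GIRK1 libraries were the lowest of the 5, with a log2 fold change of -1.56 against eGFP (95% interval -2.39 to -0.73, adjusted p = 0.0904, edgeR) and -0.46 against WT replicate 2 (adjusted p = 0.870). The difference from eGFP passed with the replicate block (-1.47, adjusted p = 0.0209, edgeR), by DESeq2 (adjusted p = 0.00105), with no filter (adjusted p = 0.00309) and with 1 eGFP library left out (-0.95 without replicate 1, -2.00 without replicate 2). The eGFP replicates were nearly as far from each other as eGFP replicate 2 was from GIRK1. ZEB2 stayed between 0.390 and 1.45 RPM and passed the filter on low counts through the GIRK1 libraries, where it was highest. TWIST1 had log2 fold changes of -0.29 and -0.05 in the 2 comparisons, and TCF3 of 0.23 and 0.32. Adjusted p ran from 0.384 to 0.985 over these genes (edgeR).

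Genes of cadherin shedding, cleavage and endocytosis were centred near 0. All 10 were tested and 0 passed either threshold in either comparison by edgeR. By DESeq2 0 passed the adjusted one against eGFP. The adjusted count by edgeR against eGFP depended on which eGFP library was kept. The median log2 fold change was -0.03 against eGFP. The γ-secretase subunit NCSTN had a log2 fold change of 0.46 (adjusted p = 0.280), the protease ADAM15 of -0.34 (adjusted p = 0.419) and the recycling GTPase RAB11A of -0.33 (adjusted p = 0.494).

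**Figure D4:**
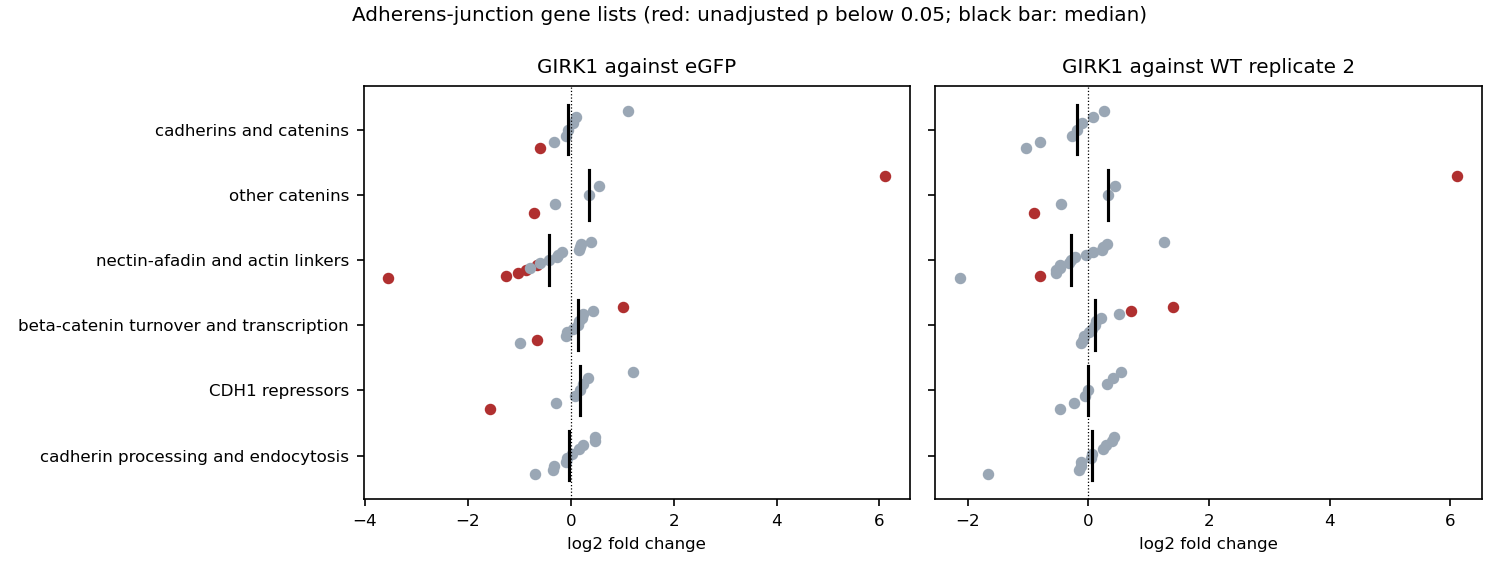
Log2 fold change of each tested gene (x axis) in 6 gene lists (rows), for GIRK1 against eGFP on the left and against WT replicate 2 on the right. Each point is 1 gene, red where the unadjusted p was below 0.05, and the black bar is the median of the list. The red points on the left number 1 among the cadherins and catenins and 5 among the nectin, afadin and actin linkers, all below 0. The other catenins and the β-catenin list each have 1 red point above 0 and 1 below, and the CDH1 repressors have 1 below. The point near 6 is CTNNA3, whose fitted value rests on 0 reads in the controls and is no measure of size.

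For likeness of pattern, the root mean square difference of log2(RPM + 1), centred on the mean of the 5 libraries, was computed against the 9288 genes that averaged 50 or more reads. The genes nearest to CDH1 were SMC1A (0.0124) and DPY30 (0.0185), with CDH1 itself spanning 0.27 on this scale. Nearest to CDH3, which spanned 0.48, were C15orf38 (0.0172) and TSSC1 (0.0191). CDH2 spanned 0.58 and was closest to ANKRD5 (0.0332) and LCMT1 (0.0393). CDH4 spanned 1.54, and its nearest genes were 2 small nucleolar RNAs, SNORA23 (0.116) and SNORD94 (0.127), which like CDH4 were lowest in GIRK1 replicate 1 and highest in WT replicate 2. All these genes were picked for likeness from 9288 genes over 5 libraries, so shared extremes follow largely from that choice. A link between the genes was not tested.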

How the data were processed

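The deposited counts are raw reads for each amplicon, which the authors mapped to the AmpliSeq human transcriptome reference and counted with the Ion Torrent suite. The version of that suite is not given in the sources used here. The deposited RPM is each count scaled to the total of its library. Amplicon positions are on transcripts, and gene positions were looked up by symbol in GENCODE for GRCh38 (8 of 8 found). The 10 spike-in amplicons had 0 reads and were left out. Tests used edgeR 4.0.16 in R 4.3.3, with TMM scaling, filterByExpr, which left 11779 genes, and the quasi-likelihood functions (glmQLFit, glmQLFTest) fitted to 3 groups over 5 libraries, with 2 residual degrees of freedom, and Benjamini-Hochberg adjustment at 0.05 over all genes tested. The lone WT library was assumed to vary like the other groups. Standard errors came from the F value. DESeq2 1.42.0 was an alternative. The procedure was checked on simulated data.

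The genes, lists and the exclusion of WT replicate 1 were chosen with earlier results of these data known. From each list the text names genes past the threshold and up to 4 others with the lowest unadjusted p against eGFP, and some of these genes are not reported here. Intervals and floors of 3 reads describe counting error alone, because copies made by PCR do not stand for separate molecules. How reads of near-identical copies were handled is not given in the sources used here. The alternatives were other normalizations, filters, libraries, a replicate block and leaving out each replicate. Counting forward or reverse reads alone was added after seeing the data.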

Additional observations from a re-analysis of the deposited data

Results flagged for a closer look

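Several genes stood out because the library labelled WT replicate 1, which no comparison uses, held them at more than 2-fold the highest of the 3 controls and with at least 10 reads. CDH1 was at 672 RPM there, against 96.3 to 110 RPM in the controls. Among other cadherins, CDH18 was at 4.79 RPM (12 reads) and had 0 reads in the other 5 libraries, and CDH24 was at 14.4 RPM against at most 4.01 RPM. Among p120-catenin relatives, CTNND2 was at 10.8 RPM against 0 in the controls, ARVCF at 15.6 RPM against at most 1.31 RPM, and PKP4 at 55.9 RPM against at most 19.9 RPM. Luminal markers summed to 16234 RPM in that library and to between 396 and 497 RPM in the other 5, and basal markers summed to 5.19 RPM against 6747 to 13551 RPM. Their part in these values was not tested.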

How the results depend on the processing

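Of 15 alternatives against eGFP, 14 called 0 of the 8 genes, as did all 13 against WT replicate 2. CTNNB1 passed without eGFP replicate 2, so the count ran from 0 to 1 over the fits that left out a replicate, and the rule of the methods, which is no test, called 1 gene, CTNND1. The counts of all genes moved far more. Against eGFP (188 genes) they were 865 with no filter, 107 with at least 10 reads in every library, 677 by DESeq2, 549 with the replicate block, 1309 by the rule of the methods and 0 with all 6 libraries (edgeR; 606 at an unadjusted p below 0.05), and from 158 to 2997 with a replicate left out (973 without eGFP replicate 1, 2997 without eGFP replicate 2). Against WT replicate 2 (27 genes) they were 133, 16, 128 and 77 under the first 4 of these, and from 34 to 576 with a replicate left out (576 without eGFP replicate 1, 449 without eGFP replicate 2, 64 without GIRK1 replicate 1). A group left with 1 library was assumed to vary like the others, and the cause of these shifts was not tested. The differences that changed sign were all within their error. Reverse reads alone turned CDH1 against eGFP to -0.12, CDH2 to 0.19 and CDH4 to 0.33. Leaving out a replicate gave log2 fold changes from -0.47 to 0.18 for CDH2, -0.069 to 0.29 for CDH3 and -0.88 to 0.48 for CDH4 against eGFP, and from -0.55 to 0.10 for CDH2 against WT replicate 2. The replicate numbers are shared only as numbers (replicate differences of eGFP and GIRK1 correlated at 0.194 over 9212 genes, which are not independent), and the block changed no call among the 8 genes. Of the genes named from the lists it changed that of SNAI2. CDH13 in all 6 libraries and CTNND1 in both eGFP libraries were at or under 3 reads. Whether depth or the amplicon limits these counts was not tested.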

Other observations

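Outside the cadherins and catenins, a marker of the basal epithelium differed between GIRK1 and eGFP. KRT17, a keratin of basal cells, rose from 853 and 952 RPM in eGFP to 3800 and 4513 RPM in GIRK1, with 1570 RPM in WT replicate 2 (log2 fold change 2.17, adjusted p = 0.00764, edgeR). Of the 2 fibroblast markers tested DCN, a matrix proteoglycan, passed, with 4 and 38 reads in eGFP, 300 and 261 reads in GIRK1 and 164 reads in WT replicate 2 (adjusted p = 0.0328, edgeR), while COL1A2, COL3A1 and PDGFRA were at 0 in all 5 libraries. With all 6 libraries in 3 groups neither KRT17 nor DCN passed against eGFP (adjusted p = 0.958 and 0.934, edgeR), and with the 3 controls as 1 group DCN did not (adjusted p = 0.145). Neither passed against WT replicate 2 (adjusted p = 0.181 and 0.661, edgeR), although KRT17 did by DESeq2 (adjusted p = 0.00172) and with no filter (0.0233), and both did with eGFP replicate 1 or eGFP replicate 2 left out. Of the luminal, leukocyte and endothelial markers 0 of 5, 0 of 2 and 0 of 1 tested passed by edgeR. The luminal marker AGR2 had 1 and 19 reads in eGFP, 66 in WT replicate 2 and 108 and 63 in GIRK1. Its log2 fold change against eGFP was 2.71 (adjusted p = 0.113, edgeR). AGR2 passed by DESeq2 (adjusted p = 0.00836), with no filter (0.00694, edgeR) and with eGFP replicate 1 or eGFP replicate 2 left out. The fits with an eGFP library left out kept 1 library in that group, and many more of all genes passed in them.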
